A study of Mus musculus with 4 samples.

Results

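Hepatic stellate cells lie between the sinusoidal endothelium and the hepatocytes, store retinyl esters in lipid droplets, and make much of the matrix and several of the growth factors of the liver. In an injured liver they become myofibroblasts, which deposit fibrillar collagen. A panel of 9 genes used as markers of these cells, not all particular to them, was followed in liver RNA. The mice were fed diets low or adequate in selenium (Se). The panel holds the retinol-esterifying enzyme gene Lrat, the intermediate filament gene Des, the receptor gene Pdgfrb, the transcription factor gene Hand2, and 5 genes of secreted proteins, Reln, Dcn, Hgf, Colec11 and Ecm1. Members were chosen by symbol, and 8 of the 9 were found among the 7000 genes of the authors' deposited table. Hand2, a basic helix-loop-helix factor, was not among them.

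The RNA came from 4 wild-type male FVB/N mice that were put on the diets at weaning. Mice 1 and 2 received the diet with 0 ppm added Se (0 Se) and mice 4 and 5 the diet with 0.1 ppm (0.1 Se, as sodium selenite) for 6 weeks. Total liver RNA was depleted of ribosomal RNA and sequenced. The deposited table gives 1 mean level per gene over the 4 libraries and has 0 columns for a single mouse, so neither the total count of a library nor the spread between mice is known here. The values below are therefore the authors' means over both diets, with no SD, and no difference between genes or between diets was tested. The table also holds the authors' own comparison of the diets, which is not used here except to see the order of the rows.

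A level is given as the mean CPM, the authors' read count scaled to a common library size. Because a long mRNA gives more fragments than a short one, levels of different genes are compared as CPM per kilobase of the mRNA length that the table lists, and CPM is given beside it. In bulk RNA, fewer cells of a type and less RNA per cell cannot be told apart. The rows of the table stand in the order of the authors' p-values and end before the largest possible p-value, so an absent gene is not shown to be low. Alb, the albumin gene, which hepatocytes express very highly, was itself absent.

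Among the secreted proteins, Dcn had the highest level per kilobase of the 8 listed members. Decorin, its product, is a small leucine-rich proteoglycan that binds collagen fibrils and transforming growth factor β. The mean level of Dcn was 185 CPM, or 98.3 CPM per kilobase, which placed it at percentile 93.5 of the listed genes. It was 3.98-fold above the next member per kilobase.

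Colec11 encodes collectin-11, a soluble lectin that recognizes sugars on microbes and starts the lectin pathway of complement. Its mean level was 34.1 CPM, or 24.7 CPM per kilobase (percentile 80.4). Ecm1 encodes extracellular matrix protein 1, a secreted glycoprotein, and was at 34.6 CPM or 18.2 CPM per kilobase (percentile 75.3). Per kilobase Colec11 stood 1.35-fold above Ecm1, with a listed mRNA of 1383 against 1899 bases. In CPM Ecm1 was slightly the higher, so the order depended on the division by length. With no error for either gene, their order cannot be given.

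Hgf encodes hepatocyte growth factor, which acts on hepatocytes through the receptor Met. It was at 30.8 CPM or 11.2 CPM per kilobase (percentile 65.2). Reln encodes reelin, a very large secreted glycoprotein best known for its part in the positioning of neurons. The mean of Reln was 130.3 CPM over an mRNA of 11698 bases, 8.46 times as long as that of Colec11, which gave 11.1 CPM per kilobase (percentile 65.0). Per kilobase Hgf and Reln were at almost the same level. The order of these neighbours cannot be given, since no error is available for either.

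The 3 listed cellular members were lower per kilobase than the 5 secreted ones, if whole mRNAs were counted. In CPM they were the lowest too, but Lrat at 30.7 and Hgf at 30.8 were almost level there, so the order of these neighbours in CPM cannot be given. Lrat encodes lecithin retinol acyltransferase, the enzyme that makes the retinyl esters of the lipid droplets, and had a mean of 30.7 CPM or 5.74 CPM per kilobase (percentile 48.1), close to the median of the listed genes, 6.19 CPM per kilobase. Pdgfrb encodes the platelet-derived growth factor receptor β, a receptor tyrosine kinase through which stellate cells are driven to divide. It was at 9.16 CPM or 1.69 CPM per kilobase (percentile 21.1). Des encodes desmin, the intermediate filament protein of muscle that stellate cells also contain, and was at 3.60 CPM or 1.67 CPM per kilobase (percentile 20.8). Pdgfrb and Des lay at the bottom of the panel and differed by 1.01-fold per kilobase, and their order too cannot be given.

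**Figure D1:**
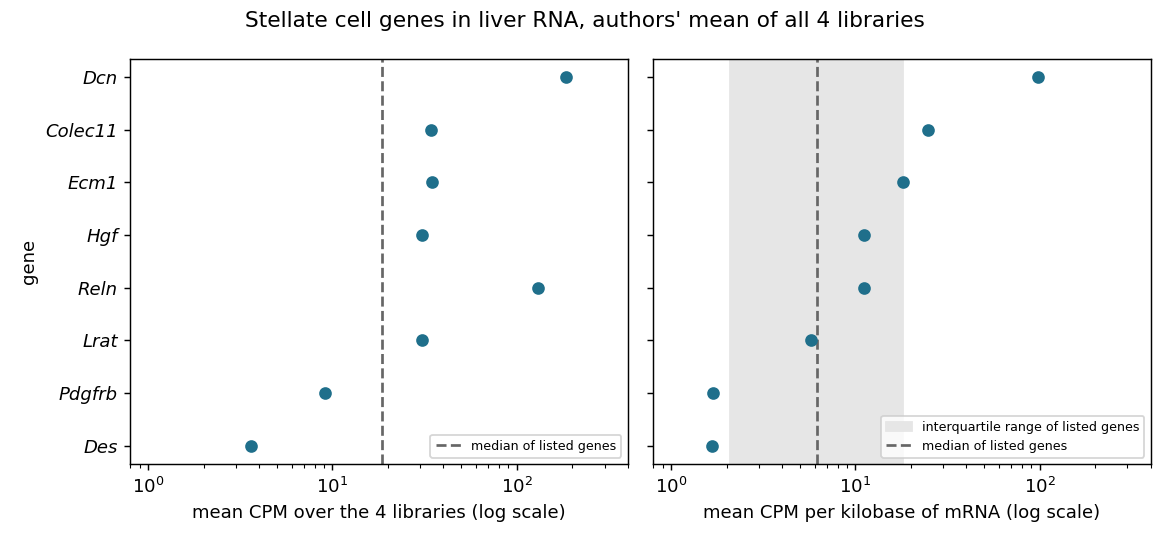
Mean level of the 8 listed stellate cell genes as CPM (left) and as CPM per kilobase of mRNA (right), both on log axes, with 1 point per gene for the authors' mean over 4 libraries and no error available. The dashed lines are the medians of the 7000 listed genes, 18.7 CPM and 6.19 CPM per kilobase, and the grey band is their interquartile range per kilobase; Dcn stands alone at the right, and Pdgfrb and Des lie below the band.

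Over the 8 listed members the median was 11.2 CPM per kilobase, at a median percentile of 65.1, and 5 of the 8 lay above the median of the listed genes. The interquartile range of all listed genes was 2.09 to 18.0 CPM per kilobase. Dcn, Colec11 and Ecm1 were above this range and Pdgfrb and Des below it. The members together made up 459 CPM, which is 0.0459% of the CPM total of a library. From Des to Dcn they spanned 58.7-fold per kilobase.

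The members differ in the build of their mRNAs as well. Coordinates and gene models are from GENCODE vM1 on NCBIM37, the assembly also known as mm9 and to whose RefSeq mRNAs the reads were aligned. Dcn lies on chromosome 10 from 96942245 to 96980777 and has 8 exons. Colec11 lies on chromosome 12 from 29279038 to 29308155, with 7 exons. Lrat and Ecm1 are both on chromosome 3, Lrat from 82696501 to 82707895 with 2 exons and Ecm1 from 95538070 to 95543492 with 11. Hgf and Reln are both on chromosome 5, Hgf from 16059368 to 16125257 with 19 exons and Reln from 21390272 to 21850523 with 65. Des lies on chromosome 1 from 75356904 to 75365154, with 9 exons, and Pdgfrb on chromosome 18 from 61204804 to 61244715, with 23. Hand2, the member without a level, lies on chromosome 8 from 59799780 to 59803314, with 2 exons.

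In Lrat the 3′ UTR takes up 4394 of 5351 bases, against 696 bases of coding sequence with its stop codon. Most of the Lrat mRNA thus does not code for protein, and reads fall there only if whole mRNAs were counted. The paper speaks of counts per mRNA, but also of coding sequence alignments that left out codons at both ends. Which of them gave these levels was not tested. If only coding sequence was counted, the level of Lrat per kilobase would be higher, and the order of the members could change. Ecm1 is the opposite case, with 93 bases of 3′ UTR beside 1680 coding bases. For 6 of the 8 listed members the annotated mRNA was within 6 bases of the length in the table. The annotated Dcn mRNA had 128 bases fewer. The annotated Des mRNA had 879 bases more in its single coding model, and with these 3028 bases the level of Des would be 1.19 CPM per kilobase instead of 1.67.

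**Figure D2:**
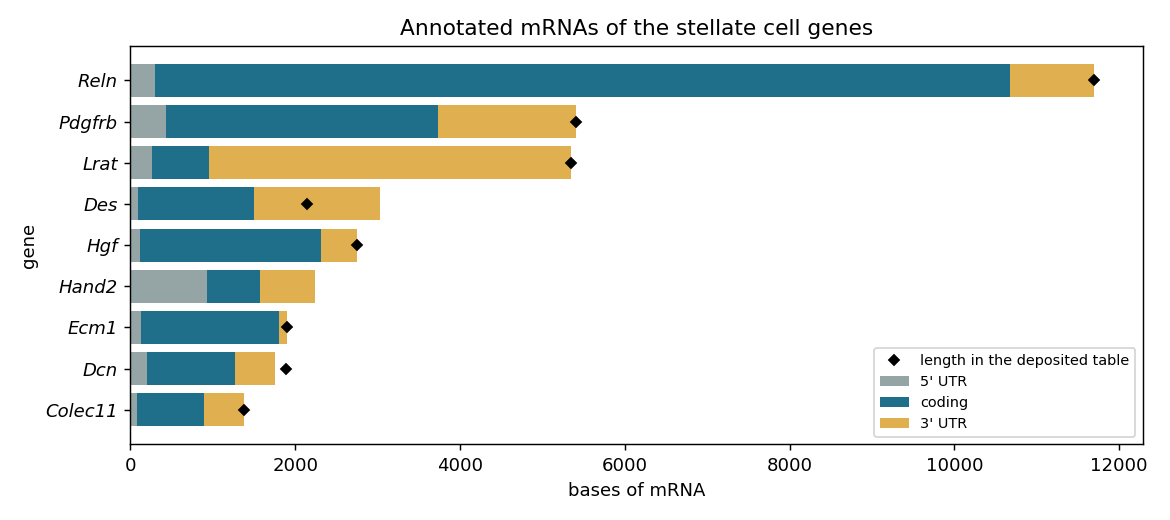
Annotated mRNAs of the 9 stellate cell genes drawn to scale in bases, with 5′ UTR, coding sequence and 3′ UTR in separate colours and the length given in the deposited table as a diamond. The 3′ UTR fills most of Lrat, Reln is the longest mRNA, the diamond of Des falls short of its annotated end, and Hand2 has no diamond because the table does not list it.

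Genes that work with the members were read from the same means. Of 21 genes of retinoid handling, 12 were listed, with a median of 8.71 CPM per kilobase. The highest was Plin2, which codes for a coat protein of lipid droplets and was at 227 CPM per kilobase, and the lowest was Rarb, a retinoic acid receptor gene, at 1.46. Dgat1, whose enzyme can also esterify retinol, was at 11.9 CPM per kilobase, 2.07 times the level of Lrat. Rbpr2, a receptor gene for retinol-binding protein that the table lists under a Riken clone name, was at 55.1 CPM per kilobase. Rbp4, the gene of the plasma retinol-binding protein, was not listed.

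For Hgf, the receptor gene Met and the activator gene Hgfac were not among the listed genes, and 2 of the 8 genes of the axis were. Hpn, which codes for hepsin, a protease that can activate the precursor of hepatocyte growth factor, was at 106 CPM per kilobase, 9.48 times the level of Hgf. Spint2, the gene of an inhibitor of such proteases, was at 17.1 CPM per kilobase. For Pdgfrb, 2 of 5 genes of the axis were listed. Pdgfra, the gene of the other receptor chain, was at 1.61 CPM per kilobase, 0.950 times the level of Pdgfrb, and the ligand gene Pdgfc was at 0.966.

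Reln exceeded its listed partners. Vldlr, the gene of a reelin receptor, was at 2.29 CPM per kilobase, and Dab1, the gene of the adaptor that receptor uses, was at 0.412. Reln was 4.86 and 27.0 times as high. The other receptor gene, Lrp8, was not listed. Colec11 was lower than the listed lectin pathway genes set beside it, of which only Masp1 codes for a binding partner. Masp1, which codes for a serine protease that binds collectins, was at 45.4 CPM per kilobase, 1.84 times the level of Colec11. The mannose-binding lectin genes Mbl1 and Mbl2, products of hepatocytes, were at 309 and 370 CPM per kilobase, and Colec10 and Masp2 were not listed.

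Dcn was higher than each of the listed small leucine-rich proteoglycan genes. Of 9 others, 6 were listed, Fmod, Aspn and Epyc being absent, from Podn at 0.455 to Bgn, the biglycan gene, at 14.2 CPM per kilobase. Lum, the lumican gene, was at 6.28. Dcn stood 6.93 times above Bgn and 15.7 times above Lum. Des was compared with the genes of other cytoskeletal proteins of these cells. Vim, the gene of vimentin, which endothelial and immune cells also express, was at 12.0 CPM per kilobase, 7.18 times the level of Des. Acta2, the gene of the actin of smooth muscle and myofibroblasts, was at 1.60 CPM per kilobase, beside Des at 1.67.

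A further list of 27 genes used as stellate cell markers had 18 listed, with a median of 3.97 CPM per kilobase, 0.356 times that of the members. The highest was Rgs5, a regulator of G protein signalling in pericytes, at 15.7, and the lowest was Hhip, the gene of a hedgehog-binding protein, at 0.247. Of the 18, 12 lay within the range of the members, percentiles 20.8 to 93.5 of all listed genes, and 6 below it. The lower end of this range is Des alone, at 1.67. Pdgfra, Cygb and Nt5e, at 1.61, 1.63 and 1.61 CPM per kilobase, lay just below it. With the annotated length of Des, at 1.19, they would lie within the range. Col14a1 and Col3a1, both collagen genes, were at 15.7 and 13.4 CPM per kilobase, and Col1a2 and Col1a1, which code for the chains of collagen I, at 4.07 and 1.03. Gfap, Nes, Tcf21 and Lhx2, which are also used as markers of these cells, were among the 9 not listed.

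Levels of genes of the other cells in liver were set beside those of the panel. A mean over whole liver does not show which cells made the RNA, so the label of the panel was not tested. The 6 listed hepatocyte genes ran from Tat at 595 to Apoa2 at 14845 CPM per kilobase, and all 6 were above every member. Their median was 407 times that of the members. The 7 listed sinusoidal endothelial genes ran from Flt4 at 6.23 to Clec4g at 76.9 CPM per kilobase, and their median of 9.27 was 0.830 times that of the members. By the mean of the log2 levels the ratio turned to 1.35, so no order of these lists can be given. The 9 listed Kupffer cell genes ran from Marco at 5.15 to Clec4f at 74.8, with a median 2.97 times that of the members. All listed genes of these endothelial and macrophage lists lay within the range of the members. That range ran from percentile 20.8 to 93.5 of all listed genes, so most listed genes of any kind lie within it. Hgf is made by sinusoidal endothelial cells as well, and Des by muscle. Other members may also be made by further cell types. The part of other cells in the levels of the members was not tested.

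The medians of the lists of other mesenchymal cells were lower. The 5 listed genes of myofibroblasts and smooth muscle had a median of 1.60 CPM per kilobase, 0.144 times that of the members, from Tpm2 at 0.562 to Myl9 at 4.33. Of these 5, 2 lay within the range of the members, Myl9 and Tagln (2.99), both above Pdgfrb and Des, and 3 lay below every member. Of these 3, Acta2 at 1.60 lay just below Des, the lowest member, at 1.67 (percentile 20.8). With the annotated length of Des, at 1.19, Acta2 would lie within the range. The 3 listed portal fibroblast genes, of 8, ran from Eln at 0.306 to Entpd2 at 0.633, and all lay below every member. Thy1 and Cd34 were not listed. Of 6 cholangiocyte genes only Spp1 was listed, at 16.5 CPM per kilobase, and it is not particular to these cells.

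**Figure D3:**
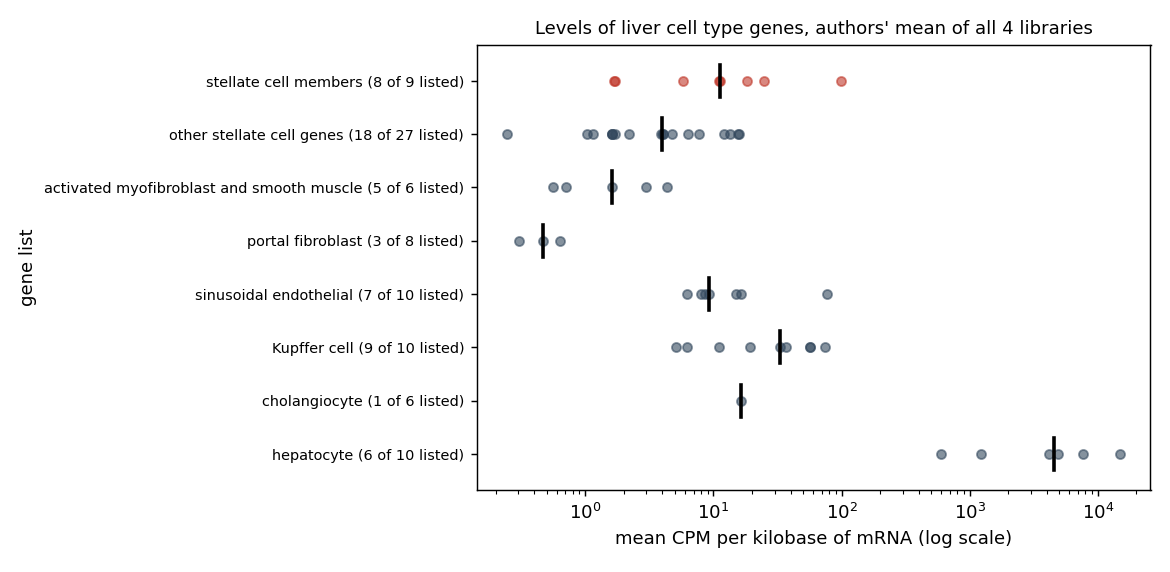
CPM per kilobase of mRNA on a log axis for the listed genes of 8 cell type lists, with 1 point per gene for the authors' mean over 4 libraries, black bars for the medians, and the stellate cell members in red. The listed endothelial and Kupffer cell genes fall within the range of the members, from Des at 1.67 to Dcn at 98.3. This range spans percentiles 20.8 to 93.5 of all listed genes. The members lie above the 3 portal fibroblast genes and below all 6 hepatocyte genes.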

How the data were processed

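Liver RNA of 4 mice, 2 per diet, was sequenced. Per the submitters' processing notes, the authors used Bowtie, edgeR and mm9. The authors matched reads to RefSeq mRNAs, using 1 longest isoform per gene and allowing up to 2 mismatches, and counted only unique matches. Genes above 1 CPM in no fewer than 3 samples entered the authors' edgeR comparison. Versions are not named. The deposited table lists 7000 genes with mRNA length, a log2 mean CPM that the authors obtained with edgeR for all libraries together, and their fold changes, p-values and FDR between the diets. Those last 3 columns are the authors' own comparison. The p-values were read only to see the order and the end of the rows, and the columns were not used otherwise. The diets are therefore not compared here. Reads shared by several mRNAs were not counted by the authors.

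From the deposited log2 values, CPM was computed as 2 to their power and divided by the listed length in kilobases. Percentiles are among the listed genes. Genes of 14 lists, 134 in all, were matched by symbol, 1 by an older symbol, and 82 were listed. Some genes of the lists are not reported here. Text names all members, the highest and lowest gene of each other list, direct partners of members, and further genes of the lists chosen after their values were seen. Members and lists were chosen with earlier results of these data known. Percentiles and levels per length were checked on simulated data. Without counts or values per mouse, no test, interval or depth is given, and leaving out a mouse was not possible. Alternatives were the level without length, a length shortened by 200 bases, the annotated length, a minimum of 2 CPM, and means of log2 levels. Python 3.11.15, numpy 2.4.6, pandas 2.3.3 and matplotlib 3.10.9 were used.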

Additional observations from a re-analysis of the deposited data

How the results depend on the processing

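The levels carry no replicate error, so any change under an alternative is given as a value. The median of the 8 listed members, 11.2 CPM per kilobase, was 11.7 with 200 bases taken off each length, 11.1617 against 11.1621 with annotated lengths (chosen after seeing the data), and 32.5 CPM with no division by length. The median percentile, 65.1, was 64.9 with no division by length and 62.4 among genes of at least 2 CPM. In CPM, 5 of the 8 members kept their place in the order; Reln moved up to the second place, and Colec11 and Hgf moved down. With means of log2 levels, the ratio of each list to the members was 0.155 for myofibroblast and smooth muscle genes, 0.0454 for portal fibroblast genes, 1.35 for sinusoidal endothelial genes, which turned from 0.830 to above 1, 2.36 for Kupffer cell genes, 350.0 for hepatocyte genes, and 1.68 for the single cholangiocyte gene. Which genes are listed depends on the authors' p-values, so medians of lists cover the listed genes only. Depth and spread between mice are unknown.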
